A study of Mus musculus with 4 samples.

Results

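Prostaglandin E2 is a lipid made by tumour cells and myeloid cells that restrains T cells. It binds the receptors EP2 and EP4, encoded by Ptger2 and Ptger4, which couple through the stimulatory G protein to adenylyl cyclase. The cyclase makes cyclic AMP (cAMP), which releases the catalytic subunits of protein kinase A (PKA) from their regulatory subunits, and phosphodiesterases degrade cAMP again. PKA phosphorylates the transcription factor CREB, encoded by Creb1, and cAMP also induces transcripts of the related gene Crem, among them the repressor ICER from an internal promoter. Map4k1 encodes HPK1, a kinase of blood cells that limits T cell receptor signalling, and its activity in T cells is known to be raised by prostaglandin E2 through PKA.

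The 10 genes described here were chosen by their role in this pathway, with earlier results of these data known. They are the receptors Ptger2 and Ptger4, the cyclase Adcy7, the PKA subunits Prkaca and Prkar1a, the phosphodiesterases Pde3b, Pde4b and Pde4d, and the transcription factors Creb1 and Crem. All 10 were found among the 21146 genes of the deposited table, and all 10 passed the filter on low values. RNA had been sequenced from T cells that infiltrated a tumour, on day 21 after its inoculation into mice of the C57BL/6 background that were wild type or labelled HPK1-/-, the protein name for Map4k1. There were 2 libraries per genotype. The labels name neither the tumour, the knockout allele, the sort of the T cells nor the mice behind each library. If the libraries of a genotype shared their mice, the spread on which the p-values rest is technical.

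Values are FPKM, fragments scaled to transcript length and library size, so levels can be compared between genes per length. Regular steps between low values gave an approximate library scale of 20200000 to 23200000 fragments, at which 1 fragment in a 2000-nt transcript is worth 0.0248 to 0.0285 FPKM. Map4k1 itself was at 48.9 and 41.1 FPKM in the wild-type pair and at 20.6 and 26.5 FPKM in the libraries labelled knockout, so its transcript was lower but not absent (limma adjusted p = 0.0134, and 0.0634 without knockout replicate 1). The T cell markers were present in all 4 libraries, with Cd3e at 142 to 153 FPKM and Cd8a at 184 to 212 FPKM, while Cd4 was at 14.9 to 18 FPKM. Of the 8 T cell markers, Cd2 rose from a mean of 171 to 250 FPKM and Trac from 312 to 411 FPKM, Cd3d fell from 225 to 174 FPKM, and 5 did not pass. Over the 9 of 10 myeloid markers with a row, sums were 4.85 and 4.35 FPKM in the wild-type pair. In the knockout they were 4.33 and 2.92 FPKM. Most of that sum was Cd68, the 1 tested, which did not pass (limma adjusted p = 0.58). Lyz2, Csf1r and Adgre1 were at or near 0. Itgam, at 0.423 and 0.553 FPKM in the wild-type pair, was at 0.246 and 0.226 FPKM in the knockout. Cd14 went from 0.563 and 0.301 FPKM to 0.0678 and 0 FPKM. No myeloid marker was higher in both knockout libraries than in both wild-type libraries. Of the 5 B cell markers 2 had a row, and they summed to 3.93 to 4.96 FPKM, nearly all of it Cd79b. The 9 tumour and stromal markers summed to 20.6 and 27.6 FPKM in the wild-type pair and to 15.7 and 15.4 FPKM in the knockout. Most of that sum was Pecam1, an endothelial marker that did not pass. Epcam, an epithelial marker, fell from 6.64 and 6.94 FPKM to 2.02 and 1.86 FPKM (limma adjusted p = 0.00318). The epithelial genes Krt8 and Krt18 of the same list were below the filter, at 0 to 0.032 FPKM and 0.0781 to 0.227 FPKM. The 5 markers of NK and innate-like lymphocytes summed to 166 FPKM in each wild-type library and to 90.0 and 97.2 FPKM in the knockout. Of the 4 tested, Klrb1c, Fcer1g and Tyrobp fell. Eomes was at 89.8 and 79.6 FPKM in the wild-type pair and 74.3 and 78.1 FPKM in the knockout. It did not pass (limma adjusted p = 0.263). Ncr1 was at or near 0 throughout. The part of these marker changes in the falls given below was not tested, and in bulk samples fewer cells of a type and less RNA per cell cannot be told apart.

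In the libraries labelled knockout, Crem and Ptger2 fell, with wild-type means 2.67 and 2.08 times the knockout means, Adcy7 and Creb1 rose slightly, and the other 6 genes did not pass the test. The test was limma's moderated model on log2(FPKM + 1), knockout against wild type, with Benjamini-Hochberg adjustment over the 11947 genes that reached 1 FPKM in 2 or more libraries, and a threshold of 0.05. With 2 genes higher and 2 lower, 4 of the 10 passed, where 28.4% of all tested genes passed, 15.4% of them higher and 13.0% lower. That share is near the background of this comparison, so the count itself is no result about the pathway. The median log2 fold change of the 10 genes was -0.062, against 0.037 over all tested genes. In 6 of the 10 genes, and in 70.0% of all tested genes, every library of one genotype lay above every library of the other. The calls rest on variance shared across genes, since an exact permutation test of 2 libraries against 2 cannot go below p = 0.333.

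**Figure D1:**
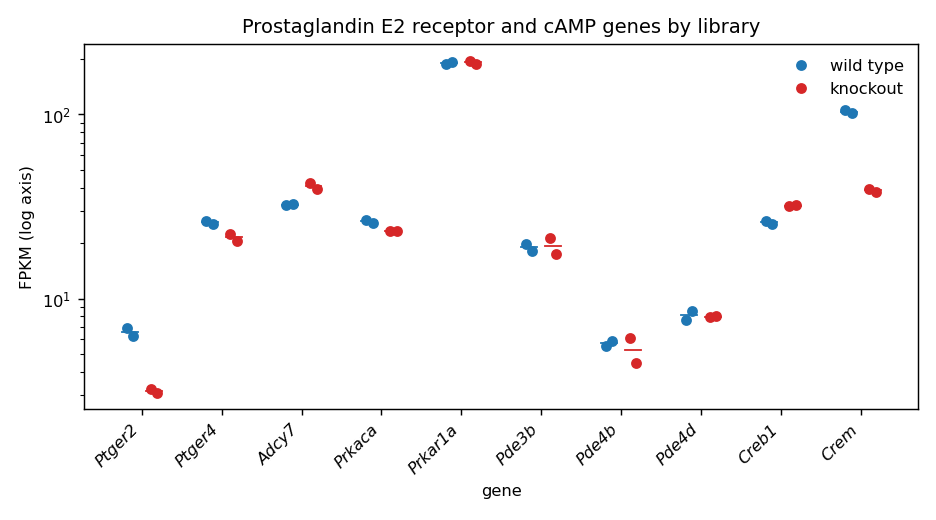
FPKM of the 10 genes on a log axis, with 1 point per library, 2 libraries per genotype, and a bar at each mean. Crem fell from 106 and 101 FPKM to 39.4 and 38.1 FPKM and Ptger2 from 6.95 and 6.24 FPKM to 3.25 and 3.08 FPKM, while the libraries of both genotypes lie together for Prkar1a, Pde3b, Pde4b and Pde4d.

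In wild type the order of mean FPKM was Prkar1a (191), Crem (104), Adcy7 (32.4), Prkaca (26.3), Creb1 (26), Ptger4 (25.9), Pde3b (19.0), Pde4d (8.11), Ptger2 (6.59) and Pde4b (5.72). The values of Prkaca, Creb1 and Ptger4 overlapped in wild type, so their order among themselves is not resolved. In the knockout Crem, at 38.8 FPKM, came below Adcy7, at 40.8 FPKM, but the libraries of these genes overlapped there. Ptger2 was the lowest of the 10 in the knockout, at 3.16 FPKM, and lay below Pde4b in both libraries.

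The EP2 receptor gene Ptger2 (ENSMUSG00000037759, GRCm38 chromosome 14, 44988195 to 45003820, plus strand) was at 6.95 and 6.24 FPKM in the wild-type pair and at 3.25 and 3.08 FPKM in the knockout. Both knockout libraries lay below both wild-type libraries. The means were 6.59 ± 0.499 FPKM (SD, n = 2) and 3.16 ± 0.119 FPKM, which gave a log2 fold change of -0.87 (SE 0.12, limma adjusted p = 0.00913). Among all tested genes 4.75% fell by as much or more. The call was lost without knockout replicate 1 (limma adjusted p = 0.0569), without knockout replicate 2 (limma adjusted p = 0.0532) and when no gene was filtered (limma adjusted p = 0.0514). The span of the annotated antisense gene Gm17173 overlaps that of Ptger2. Gm17173 was itself at 2.30, 2.14, 1.34 and 1.53 FPKM in the wild-type pair and knockout. Overlaps here and below were taken from whole gene spans and not from exons, and the strand setting of the counting was not given. Whether reads of Gm17173 and Ptger2 were mixed was not tested.

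The EP4 receptor gene Ptger4 (ENSMUSG00000039942, GRCm38 chromosome 15, 5206661 to 5244187, minus strand) was the more abundant of these Gs-coupled receptors. It was at 26.5 and 25.3 FPKM in the wild-type pair and at 22.4 and 20.6 FPKM in the knockout, without overlap. The log2 fold change of -0.26 did not pass (SE 0.09, 95% interval -0.49 to -0.033, limma adjusted p = 0.0844). It did not pass under any of the 13 alternative settings either, with adjusted p from 0.0519 to 0.41. The ratio of Ptger4 to Ptger2 within a library, which does not depend on library scaling, was 3.81 and 4.06 in wild type and 6.90 and 6.67 in the knockout. The ratios of the genotypes did not overlap (exact permutation p = 0.333, two-sided, the smallest this design allows). Ptger4 is overlapped on the other strand by Ttc33, at 10 to 15.3 FPKM.

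Of the other prostanoid receptors, 4 were tested and none passed, so that Ptger2 alone was called among the 6 tested of 9 listed. The lowest p outside the members was that of Tbxa2r, the thromboxane receptor gene, at 12.3 and 9.50 FPKM in the wild-type pair and 14 and 14.4 FPKM in the knockout (limma adjusted p = 0.104). Ptger3, which encodes the inhibitory G protein-coupled EP3, was at 5.78 and 5.09 FPKM and at 6.51 and 6.80 FPKM. Among 3 tested of 11 genes for making or clearing prostanoids, Abcc4, an exporter of prostaglandin E2 and of cAMP, rose from 4.55 ± 0.427 to 6.75 ± 0.772 FPKM (limma adjusted p = 0.047), a call lost when any single library was left out, with adjusted p up to 0.259. Ptgs2, which encodes the inducible cyclooxygenase, did not reach the filter, with 0.0667 and 0.0826 FPKM in the wild-type pair, and was listed at 0 in both knockout libraries.

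Downstream of the receptors, the cyclase gene Adcy7 (ENSMUSG00000031659, GRCm38 chromosome 8, 88272403 to 88329962, plus strand) was at 32.1 and 32.7 FPKM in the wild-type pair and at 42.4 and 39.2 FPKM in the knockout. Both knockout libraries were higher, by a log2 fold change of 0.32 (SE 0.08, limma adjusted p = 0.0413). The call was lost when any single library was left out, at adjusted p up to 0.277, and held under 4 of 13 alternatives. Adcy7 was the most abundant cyclase gene, followed by Adcy3, at 11 and 10.2 FPKM in the wild-type pair and 12.9 and 12.6 FPKM in the knockout, which did not pass (limma adjusted p = 0.115) and is overlapped on the other strand by Cenpo, at 9.17 to 15.3 FPKM. Adcy6 was at 2.23 to 2.74 FPKM. Of 9 tested genes for G proteins and their helpers, Gnb2, a beta subunit, rose from 310 ± 8.46 to 384 ± 20.7 FPKM (limma adjusted p = 0.0418) and Gng5, a gamma subunit, fell from 238 ± 5.48 to 163 ± 17.7 FPKM (limma adjusted p = 0.0162). The call of Gnb2 was lost when any single library was left out, at adjusted p up to 0.29, and that of Gng5 without knockout replicate 1, at 0.111. Gnas, the gene of the stimulatory alpha subunit, was at 327 and 342 FPKM in the wild-type pair and 307 and 283 FPKM in the knockout and did not pass (limma adjusted p = 0.151).

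The PKA genes among the 10 did not pass. Prkaca (ENSMUSG00000005469, GRCm38 chromosome 8, 83972993 to 83996443, plus strand), which encodes the catalytic alpha subunit, was at 26.8 and 25.9 FPKM in the wild-type pair and 23.4 and 23.3 FPKM in the knockout. Its groups did not overlap, but the log2 fold change of -0.17 had a 95% interval of -0.37 to 0.037 (limma adjusted p = 0.175). Prkar1a (ENSMUSG00000020612, GRCm38 chromosome 11, 109649405 to 109669656, plus strand), which encodes the type I alpha regulatory subunit, was at 188 and 193 FPKM in the wild-type pair and 196 and 188 FPKM in the knockout. Its groups overlapped, and the log2 fold change of 0.011 had a 95% interval of -0.17 to 0.19 (limma adjusted p = 0.921).

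Prkacb, the gene of the catalytic beta subunit, was at 29 and 32.3 FPKM in the wild-type pair and at 34.9 and 34 FPKM in the knockout and did not pass (limma adjusted p = 0.213). The ratio of Prkaca to Prkacb within a library was 0.924 and 0.802 in the wild-type pair and 0.670 and 0.685 in the knockout pair (exact permutation p = 0.333, two-sided, the smallest this design allows).

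Prkar2a, which encodes the type II alpha regulatory subunit that binds anchoring proteins, was the only PKA gene called among 7 tested. It rose from 19.9 and 18.6 FPKM to 31.5 and 29.0 FPKM, or 0.62 in log2 terms (SE 0.09, limma adjusted p = 0.0104). Leaving out either knockout library ended the call, at adjusted p up to 0.0852. Prkar1a made up 89.0% and 90.2% of the FPKM of the 4 regulatory subunit genes in wild type and 84.7% and 85.4% in the knockout, and Prkar2a 9.40% and 8.72% against 13.6% and 13.2%. Of 12 tested A-kinase anchoring protein genes, which hold PKA near its substrates, 2 rose and 2 fell, against 15.4% and 13.0% of all genes. Akap8 went from 33.9 ± 0.743 to 46.3 ± 2.52 FPKM and Arfgef2 from 7.53 ± 0.431 to 10.3 ± 0.0912 FPKM, while Akap8l fell from 15.8 ± 1.01 to 11.3 ± 0.0414 FPKM and Akap7 from 2.17 ± 0.469 to 0.860 ± 0.0542 FPKM. Akap7 reached the filter of 1 FPKM in wild type only, which favoured a fall, and without it 2 rose and 1 fell of 11. None of these 4 genes was called when either knockout library was left out, with adjusted p of up to 0.198, and without wild-type replicate 1 Akap7 and Arfgef2, or without wild-type replicate 2 Akap8l, were not called either.

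None of the phosphodiesterase genes among the 10 passed. Pde3b (ENSMUSG00000030671, GRCm38 chromosome 7, 114415281 to 114539251, plus strand), of the family inhibited by cyclic GMP, was at 19.9 and 18.1 FPKM in the wild-type pair and 21.3 and 17.5 FPKM in the knockout. Pde4b (ENSMUSG00000028525, GRCm38 chromosome 4, 102087543 to 102607259, plus strand), a cAMP-specific enzyme, was at 5.54 and 5.90 FPKM and at 6.10 and 4.48 FPKM. Pde4d (ENSMUSG00000021699, GRCm38 chromosome 13, 108449948 to 109953461, plus strand), also cAMP-specific, was at 7.64 and 8.57 FPKM and at 7.96 and 8.03 FPKM. The genotypes overlapped for all 3, and the 95% intervals of the log2 fold change were -0.28 to 0.34 for Pde3b, -0.50 to 0.29 for Pde4b and -0.29 to 0.25 for Pde4d. The pseudogene Rps3a3 lies within Pde4d and was listed at 9.29 to 20 FPKM.

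Of the 9 tested cAMP phosphodiesterase genes, Pde7a was the one called. This gene of a T cell phosphodiesterase rose from 13.3 and 13.5 FPKM to 18.3 and 17.5 FPKM, or 0.39 in log2 terms (SE 0.09, limma adjusted p = 0.028), and its call was lost without either knockout library or wild-type replicate 1, at adjusted p up to 0.198. The FPKM of all 15 phosphodiesterase genes with a row summed to 59.8 and 59.4 in wild type and to 66.9 and 57.5 in the knockout, which overlap. Pde3b and Pde7a held the largest shares of that sum in every library, 30.4% to 33.2% and 22.2% to 30.5%, with the order of these genes in knockout replicate 2 resting on 30.4% against 30.5%. The cAMP-activated exchange factor gene Rapgef4 was at 0.665 and 1.25 FPKM in the wild-type pair and 3.25 and 1.92 FPKM in the knockout and did not pass (limma adjusted p = 0.0561), and none of the 4 tested genes of that list did.

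**Figure D2:**
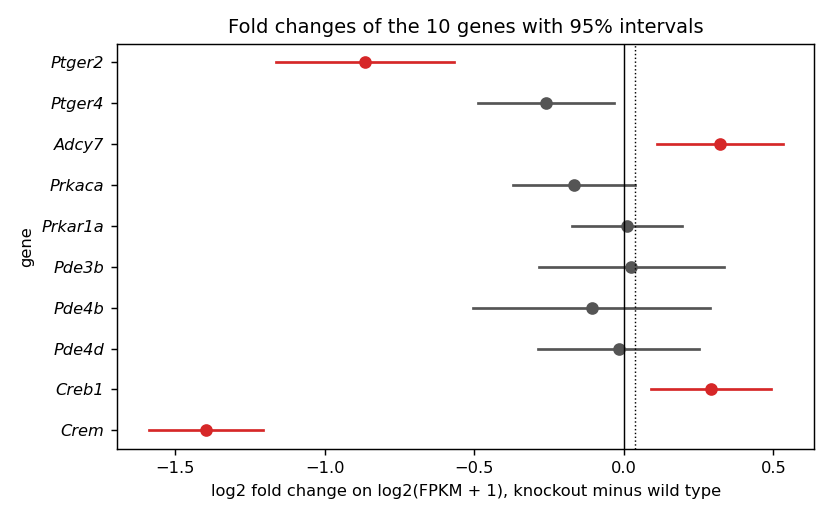
Log2 fold change of the 10 genes on the log2(FPKM + 1) scale, knockout minus wild type, with points at the estimate, lines for the 95% interval of the limma model, red for genes past the threshold, a solid line at 0 and a dotted line at the median of all tested genes. Crem at -1.40 and Ptger2 at -0.87 lie apart from the other 8, whose estimates run from -0.26 to 0.32.

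The largest change among the 10 was in Crem (ENSMUSG00000063889, GRCm38 chromosome 18, 3266048 to 3337748, minus strand). It was at 106 and 101 FPKM in the wild-type pair and at 39.4 and 38.1 FPKM in the knockout, far outside the spread of either pair. The means were 104 ± 3.07 and 38.8 ± 0.948 FPKM, which gave a log2 fold change of -1.40 (SE 0.08, 95% interval -1.59 to -1.21, limma adjusted p = 0.000952). Of the 11947 tested genes 205, or 1.72%, fell by as much or more. Crem was called under each of the 13 alternatives, with log2 fold changes from -1.44 to -1.24 and adjusted p up to 0.0269. The annotation gives Crem 39 transcripts, which include activator and repressor forms, and a single value per gene does not separate them.

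Creb1 (ENSMUSG00000025958, GRCm38 chromosome 1, 64532645 to 64604548, plus strand) went the other way. It was at 26.5 and 25.5 FPKM in the wild-type pair and 31.8 and 32.2 FPKM in the knockout, without overlap, a log2 fold change of 0.29 (SE 0.08, limma adjusted p = 0.0477). The call was lost when any single library was left out, at adjusted p up to 0.241, and held under 4 of 13 alternatives. The ratio of Crem to Creb1 within a library was 4.0 and 3.98 in wild type and 1.24 and 1.18 in the knockout (exact permutation p = 0.333, two-sided, the smallest this design allows). Crem transcript was thus about as abundant per length as Creb1 transcript in the knockout and several times as abundant in wild type.

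Of the 13 tested genes of the CREB family with its coactivators and regulators, 3 rose and 2 fell, Creb1 and Crem among them, a called share of 38.5% near the 28.4% of all tested genes. Atf1, which forms a subfamily with Creb1 and Crem, rose from 41.3 ± 0.474 to 52.0 ± 2.46 FPKM (limma adjusted p = 0.0366), and Ep300, a histone acetyltransferase that CREB recruits, from 17.0 ± 2.55 to 29.5 ± 6.28 FPKM (limma adjusted p = 0.0316). Sik1, a cAMP-induced kinase that holds CREB coactivators in the cytoplasm, fell from 8.34 ± 0.338 to 5.94 ± 0.0518 FPKM (limma adjusted p = 0.0338). The calls of Atf1 and Sik1 were lost when any single library was left out, at adjusted p up to 0.258 and 0.178, and that of Ep300 without wild-type replicate 1 or knockout replicate 1, with adjusted p up to 0.136.

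**Figure D3:**
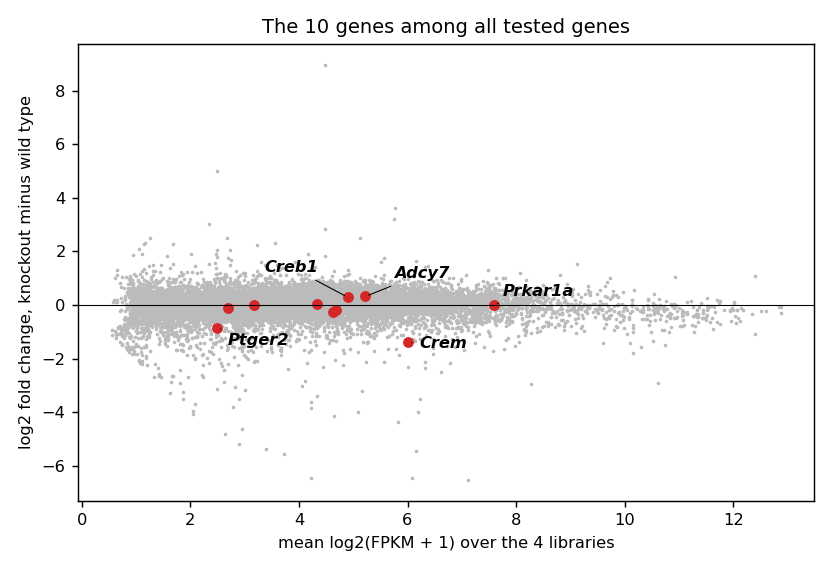
Log2 fold change (knockout minus wild type) against mean log2(FPKM + 1) over the 4 libraries for the 11947 tested genes in grey, with the 10 genes in red and 5 of them named. Crem lies at -1.40, Ptger2 at -0.87, and Prkar1a near 0.

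Genes known from other cells as targets of cAMP and CREB were mostly lower. Of 16 tested genes in a list of 20, 12 fell and none rose, or 75.0% of those tested. Among all tested genes 13.0% fell, and 28.4% were called in either direction. The median log2 fold change of the list was -0.82, against 0.037 over all tested genes. Of the 16 genes, Fos and Rgs2 reached the filter of 1 FPKM in wild type only, so that a fall was favoured for them. Without them 10 of 14 fell. The list includes the members Crem, Pde4b and Pde4d, and outside the members 11 of 13 fell. Crem and Sik1, which fell in the CREB family list above, are counted again here, so the counts of these lists are not independent. The list was written with earlier results of these data known, so its called share is no independent test. Most of these genes are also induced by stimulation of the T cell receptor, and the list does not separate these inputs. Over the alternatives 7 to 12 of these genes fell and none rose, with 7 without knockout replicate 1. Klrb1c, Fcer1g, Tyrobp and Epcam, given above, were lower in the same libraries, and their part in this count was not tested.

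The nuclear receptor genes Nr4a3 and Nr4a2 fell most, to 0.199 and 0.169 of the wild-type mean. Nr4a3 was at 16 and 15.5 FPKM in the wild-type pair and 3.02 and 3.25 FPKM in the knockout, and Nr4a2 at 6.82 and 7.12 FPKM and at 0.999 and 1.35 FPKM. Btg2, which restrains proliferation, fell from 36.3 and 34.6 FPKM to 16.6 and 16.9 FPKM (limma adjusted p = 0.0027). Id2, an inhibitor of helix-loop-helix factors, fell from 443 and 456 FPKM to 248 and 250 FPKM (limma adjusted p = 0.0031), and Ddit4, an inhibitor of mTORC1 signalling, from 276 and 240 FPKM to 120 and 132 FPKM (limma adjusted p = 0.00445). In all of these genes both knockout libraries lay below both wild-type libraries, and each was called without any 1 library. Nr4a1, the third gene of that receptor family, was at 7.09 and 7.73 FPKM and at 2.47 and 2.83 FPKM (limma adjusted p = 0.00481) and was also called without any 1 library. Fosl2, Fos and Rgs2 had limma adjusted p of 0.0335 to 0.0441, and none of the 3 was called when any single library was left out, at adjusted p up to 0.242. Fos and Rgs2 lay at 1.06 to 1.47 FPKM in the wild-type pair and at 0.171 to 0.481 FPKM in the knockout. Areg, an EGF receptor ligand gene, was below the filter at 0.385 and 0.362 FPKM and listed at 0 in both knockout libraries.

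Dusp1, a MAP kinase phosphatase gene, was at 18.9 and 17.9 FPKM and at 9.21 and 10.3 FPKM, and its call (limma adjusted p = 0.00667) was lost without knockout replicate 1, at 0.0512. The annotated span of Ergic1, at 69.4 to 76.8 FPKM, overlaps that of Dusp1 on the other strand. Whether their exons or reads overlap was not tested. Ppp1r15a and Per1, both inducible by cAMP, did not pass, at 10.2 ± 1.73 and 7.50 ± 0.0682 FPKM and at 10.8 ± 1.66 and 9.49 ± 0.0894 FPKM.

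**Figure D4:**
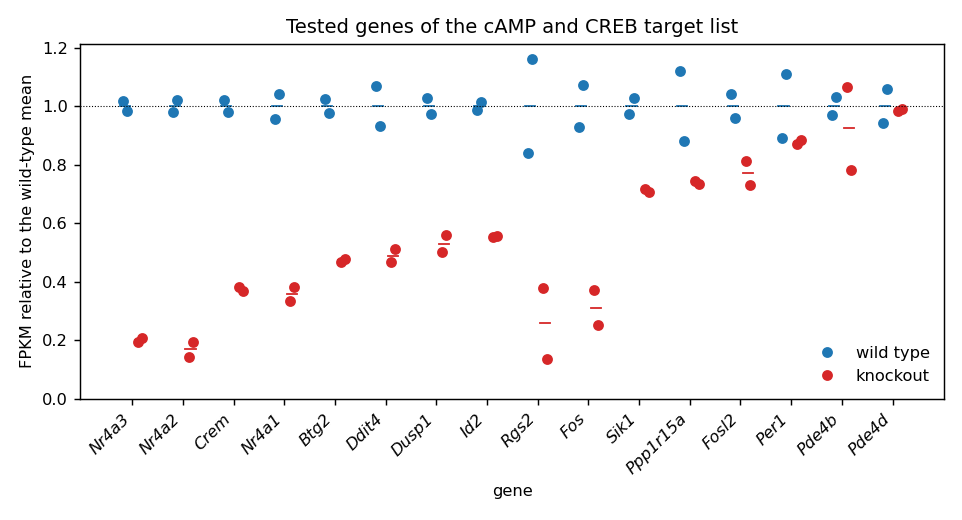
FPKM relative to the wild-type mean for the 16 tested genes of the cAMP and CREB target list, with 1 point per library, a bar at each mean and the genes ordered by log2 fold change. The knockout means are 0.199 for Nr4a3, 0.169 for Nr4a2, 0.257 for Rgs2 and 0.374 for Crem, and Pde4b and Pde4d lie near the wild-type mean.

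CREB binds the palindrome TGACGTCA, the cAMP response element, and the shorter site TGACG, its first 5 bases. RefSeq promoters on GRCm38.p6 were searched in the 250 bases before the annotated start on both strands, the shorter site reading CGTCA on the other strand, and each full site also counts as a shorter one. The full site was present for 1.77% of 27025 genes and the shorter site for 19.8%. A promoter was given for 8 of the 10 members, of which 1 held the full site and 4 the shorter one. In the target list 18 of 20 had a promoter, 5 with the full site and 14 with the shorter one. The following windows show the full site (capitals) in the member Prkar1a, which did not pass, in Btg2 and Dusp1, which fell, and in Ppp1r15a, which did not pass, and the shorter sites (capitals) of Nr4a3, which fell furthest on the log2 scale in the list. Each is read 5′ to 3′ on the strand of its gene.
Prkar1a, chr11:109650874-109650933, plus strand: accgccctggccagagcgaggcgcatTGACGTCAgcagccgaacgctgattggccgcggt
Btg2, chr1:134079288-134079347, minus strand: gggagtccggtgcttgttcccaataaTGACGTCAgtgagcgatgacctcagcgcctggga
Dusp1, chr17:26508582-26508641, minus strand: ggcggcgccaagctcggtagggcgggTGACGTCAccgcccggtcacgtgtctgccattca
Ppp1r15a, chr7:45526269-45526306, minus strand: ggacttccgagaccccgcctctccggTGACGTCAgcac
Nr4a3, chr4:48045064-48045172, plus strand: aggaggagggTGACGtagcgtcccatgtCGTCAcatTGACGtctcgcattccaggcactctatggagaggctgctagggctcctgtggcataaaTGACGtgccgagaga
The full site starts 49 bases before 1 of the 6 annotated starts of Prkar1a, 166 before that of Btg2, 143 before that of Dusp1 and 12 before that of Ppp1r15a. Genes with this element were found both among those that fell and among those that did not pass, and neither Ptger2, Ptger4, Pde4d nor Creb1 held either motif in this window. A match is a description of the letters and not of binding.

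PKA restrains the T cell receptor through Csk, a kinase that inactivates Lck at the membrane adaptor encoded by Pag1. A list of 5 genes at or near this step held Csk, Pag1, Lck, Ptprc and Ptpn7, and was written with earlier results of these data known. Of these 5, all tested, 4 rose and none fell, where 15.4% of all tested genes rose. Ptpn7 did not pass (limma adjusted p = 0.062). Pag1 rose from 11.9 and 11.6 FPKM to 20.6 and 18.5 FPKM, or 0.68 in log2 terms (SE 0.10, limma adjusted p = 0.00996). Csk rose from 107 and 93.8 FPKM to 137 and 135 FPKM (limma adjusted p = 0.0239), Lck from 327 and 320 FPKM to 416 and 387 FPKM (limma adjusted p = 0.0377), and Ptprc, the gene of the phosphatase CD45, from 556 and 709 FPKM to 1100 and 942 FPKM (limma adjusted p = 0.0241). The calls of Pag1, Csk, Lck and Ptprc were lost without knockout replicate 1. Those of Csk, Lck and Ptprc were also lost without knockout replicate 2. The call of Lck was lost without either wild-type library too, and that of Ptprc without wild-type replicate 1.

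The deposited FPKM summed to 975047 and 975107 in the wild-type pair and to 871584 and 878584 in the knockout. Scaling the libraries to equal totals raised the median log2 fold change of all tested genes by 0.142. It put 75.7% of calls on the higher side in place of 54.2%. Mitochondrial, haemoglobin and immunoglobulin genes were left out of the totals made equal. Under that scaling Crem was at -1.24 and Ptger2 at -0.73, still called, and Adcy7 and Creb1 at 0.48 and 0.45. The signs of these 4 genes did not change under any of the 13 alternatives, whereas those of Prkar1a, Pde3b, Pde4b and Pde4d, all near 0, did under some.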

How the data were processed

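RNA of tumour-infiltrating T cells had been extracted with Trizol and made into libraries with the NEBNext Ultra kit, per the labels' protocols. The authors deposited 1 table of FPKM values with a column for each of the 4 libraries. The submitters' processing notes name HISAT, Cuffnorm and GRCm38, and versions, annotation, strand setting and scaling option are not given in the sources used here. Symbols and positions came from GENCODE M21 on GRCm38 for 21011 gene IDs, and 135 had no match. The depth is unknown. The approximate fragment scale was read from steps between low values of genes with 1 transcript of 1000 to 6000 nt less 260 nt, where 91.8% to 92.7% of low values lay within 0.1 of a whole fragment, with scale and length chosen on the same values.

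Values were tested as log2(FPKM + 1), which understates changes of low genes, with limma 3.58.1 in R 4.3.3, two-sided, with a mean-variance trend (2 residual and 3.39 prior degrees of freedom). The fit was tested on simulated data, where it recovered 69.5% of 200 genes changed 2-fold, all drawn from genes above a minimum level. A gene that did not pass can thus still have changed. Tables and plots used Python 3.11.15, pandas 2.3.3 and matplotlib 3.10.9. Alternatives covered pseudocount, filter, scaling, variance model, replicate block and leaving out each library. Named genes were the 10 members, Map4k1 and, per pathway list, up to 5 called genes outside the members with the lowest p, or 1 if none was called. Further genes named were chosen after their values were seen. They were Ptger3, Ptgs2, Adcy6, Gnas, Prkacb, Nr4a1, Fos, Fosl2, Rgs2, Areg, Dusp1, Ppp1r15a, Per1 and Ptpn7, and the genes of the closing section. The members and lists were chosen with earlier results of these data known.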

Additional observations from a re-analysis of the deposited data

How the results depend on the processing

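Of the 10 members, 4 passed in the reported fit, Crem and Ptger2 lower and Adcy7 and Creb1 higher. With quantile normalization, median-of-ratios scaling, no variance trend or the replicate block, 2 passed and 0 of them was higher. With no filter on low values 1 passed, 0 higher and 1 lower. Leaving out 1 library at a time gave 1 to 2 members, 0 of them higher and 1 to 2 lower. Over all genes the calls numbered 3390 (1839 higher, 1551 lower), 1231 with no filter (609 higher, 622 lower), and 579 to 3235 when single libraries were left out (189 to 1693 higher, 390 to 1542 lower), lowest without knockout replicate 1. With equal totals 3475 genes were higher. Signs near 0 turned for Prkar1a with median-of-ratios scaling (-0.031), for Pde3b with quantile normalization (-0.026) and median-of-ratios scaling (-0.015), and for Pde4b and Pde4d with equal totals (0.029 and 0.13). With single libraries left out, Prkar1a ranged from -0.019 to 0.042, Pde3b from -0.11 to 0.16, Pde4b from -0.29 to 0.081 and Pde4d from -0.090 to 0.057. The cause of these shifts was not tested. These fits take the spread of a genotype with 1 remaining library from the other genotype. Same-numbered libraries did not deviate together (correlation -0.0321 of deviations). A single correlation across genes cannot show whether libraries of the same number were prepared as a pair. With the replicate block 2801 genes passed, and Adcy7 (limma adjusted p = 0.068) and Creb1 (limma adjusted p = 0.0842) did not. Over the named genes tallied under the alternatives, 533 values kept direction and call, 144 lost the call, 9 gained it and 11 turned sign. The cell type markers were not among these genes.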

Other observations

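Other receptors that couple to the stimulatory G protein were listed after the values of the members had been seen. Of 13 such genes 8 were tested, 2 fell and 1 rose, 37.5% against 28.4% of all tested genes. The adenosine receptor genes Adora2a and Adora2b fell from 12.9 and 11.9 FPKM to 7.38 and 8.02 FPKM (limma adjusted p = 0.0135) and from 6.10 and 4.18 FPKM to 1.29 and 1.52 FPKM (limma adjusted p = 0.00996). Hrh2, a histamine receptor gene, rose from 3.03 and 3.54 FPKM to 6.93 and 6.5 FPKM (limma adjusted p = 0.0103). Adora2a and Hrh2 were not called without knockout replicate 1 or knockout replicate 2, with adjusted p up to 0.0998 and 0.0745, and Adora2b was not called without knockout replicate 1, with an adjusted p of 0.0532. None of these 3 genes was called with no filter on low values, at adjusted p up to 0.0632.

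Further bZIP genes of the CREB and ATF families, listed in the same way, had 3 lower and 2 higher of 13 tested, a called share of 38.5% near the 28.4% of all tested genes. Atf3, a stress-induced repressor, fell from 17.7 and 18.9 FPKM to 4.12 and 5.59 FPKM, a log2 fold change of -1.73 (SE 0.15, limma adjusted p = 0.00318), and stayed past the threshold under all 13 alternatives. Atf5 fell from 16.9 ± 0.0356 to 10.2 ± 0.567 FPKM and Jdp2 from 16.5 ± 1.04 to 12.5 ± 0.269 FPKM. Atf2 rose from 12.6 ± 1.21 to 19.3 ± 0.197 FPKM and Atf6 from 7.0 ± 0.402 to 10.4 ± 0.489 FPKM. The calls of Atf5, Jdp2, Atf2 and Atf6 were each lost without knockout replicate 1, those of Jdp2, Atf2 and Atf6 also without knockout replicate 2 and with no filter, and those of Jdp2 and Atf6 also without wild-type replicate 1. Jdp2 was not called with equal totals or the replicate block either.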
